A study of Mus musculus with 22 samples.

Results

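The genes described here are the 46 autosomal protein-coding genes of the POU, SOX and KLF families of transcription factors, of 20807 autosomal protein-coding genes in all. They were chosen by family name, with 12 POU, 18 SOX and 16 KLF genes. A peak of Oct4 chromatin immunoprecipitation sequencing (ChIP-seq) was given to a gene where the summit, the base with the most fragments, lay in the gene body or within 100 kb of it (GENCODE M21 annotation, GRCm38). The tissue was aorta, taken as the stretch between the aortic root and the carotid bifurcation, from Apoe-/- mice on a C57BL/6 background that had been fed Western diet for 18 weeks. One ChIP sample was made from 15 SMC Oct4-WT/WT mice and 1 from 15 SMC Oct4-Δ/Δ mice, so the genotypes have no replicate samples and intervals given here cover counting error only. In these lines a tamoxifen-activated Cre recombinase driven by the Myh11 promoter deletes Oct4 in smooth muscle cells (SMC). The transgene sits on the Y chromosome, so mice of both genotypes were male, and both were Apoe-/- and fed the same diet. The tissue was a mixture of cell types, and cells other than SMC keep Oct4 in the SMC Oct4-Δ/Δ mice. Peak lists hold no RNA level, so neither the labelled cell types nor the loss of Oct4 could be checked against markers in them.

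Oct4, encoded by Pou5f1, is a POU factor that binds the octamer ATGCAAAT, in embryonic stem cells commonly beside a SOX site as a partner of Sox2. SOX factors carry a high mobility group domain that binds letters such as ATTGTT, and KLF factors carry zinc fingers that bind CACCC boxes such as CCACACCC. Pou5f1, Sox2 and Klf4 are 3 of the factors used to reprogram somatic cells to pluripotency. In the arterial wall, Klf4 and Klf5 are known for their part in SMC phenotypic switching and Klf2 is known as an endothelial gene induced by flow.

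The windows of 2 member peaks are shown first. They are 101 bases of the GRCm38 reference, plus strand, centred on the summit. That of Klf9 is shown because it was the one member peak with the octamer, and capitals mark ATTTGCAT, the octamer read on the other strand. That of Klf13 is shown because it was the one SMC Oct4-WT/WT peak inside a member gene, and it holds no letters in capitals.
Klf9, chr19:23072846-23072946: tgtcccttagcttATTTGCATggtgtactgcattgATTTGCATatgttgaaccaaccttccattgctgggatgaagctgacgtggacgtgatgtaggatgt
Klf13, chr7:63909137-63909237: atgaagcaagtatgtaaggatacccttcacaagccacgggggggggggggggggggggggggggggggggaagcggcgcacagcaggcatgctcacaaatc

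In SMC Oct4-WT/WT, 12 of 46 members had at least 1 peak within 100 kb (26.1%, exact binomial interval 14.3 to 41.1), against 29.9% of all autosomal protein-coding genes. In SMC Oct4-Δ/Δ, 24 of 46 had one (52.2%, 36.9 to 67.1), against 46.1% of all genes. Both shares were near the background, and both intervals hold it. Of the members, 11 had a peak in both genotypes, 13 in SMC Oct4-Δ/Δ alone, 1 (Pou3f1) in SMC Oct4-WT/WT alone and 21 in neither. These are 23.9%, 28.3%, 2.17% and 45.7% of members, against 26.9%, 19.1%, 2.99% and 50.9% of all genes in the same order. The SMC Oct4-Δ/Δ list was longer over the autosomes as a whole, with 5794 peaks against 3888, at 1.06 times the recovered depth. With sequences other than the autosomes included, the SMC Oct4-Δ/Δ list held 7479 peaks and the SMC Oct4-WT/WT list 5455. Cut to the length of the whole SMC Oct4-WT/WT list, the SMC Oct4-Δ/Δ list left 21 members with a peak (45.7%), against 41.8% of all genes. That cut did not make the numbers of autosomal peaks equal, so the longer SMC Oct4-Δ/Δ list was allowed for only in part. Most members therefore had no called peak in SMC Oct4-WT/WT, as had most genes, and for members as for all genes more had one in SMC Oct4-Δ/Δ.

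Peaks of members were few in number and did not stand above even placement. The 12 SMC Oct4-WT/WT peaks (exact Poisson interval 6.2 to 21) compare with 19.9 expected if the peaks of each chromosome were spread evenly over its sequence, a ratio of 0.604 (0.312 to 1.06). The 29 SMC Oct4-Δ/Δ peaks (19.4 to 41.6) compare with 28.7 expected, a ratio of 1.01 (0.676 to 1.45). Over all coding genes the ratio was 1.11 (1.07 to 1.15) in SMC Oct4-WT/WT and 1.12 (1.09 to 1.16) in SMC Oct4-Δ/Δ. The SMC Oct4-WT/WT ratio of members lay below that of all genes, with an interval that ends just under it. All member peaks lay outside the 1 Mb bins dense in peaks. With only peaks outside these bins counted, the ratio of members was 0.873 in SMC Oct4-WT/WT and 1.23 in SMC Oct4-Δ/Δ. The ratio of all genes outside these bins was not computed, so the gap to all genes was not tested there. The side of 1 on which the SMC Oct4-WT/WT ratio of members fell depended on the processing. That ratio was 1.27 with a window of 200 kb. It was 1.07 when only summits in single-copy sequence were kept, an alternative chosen after seeing the data. The windows of members held few other genes, with a median of 2 other coding genes against 5 over all genes, and the median member was 7.61 kb long against 17.6 kb.

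**Figure D1:**
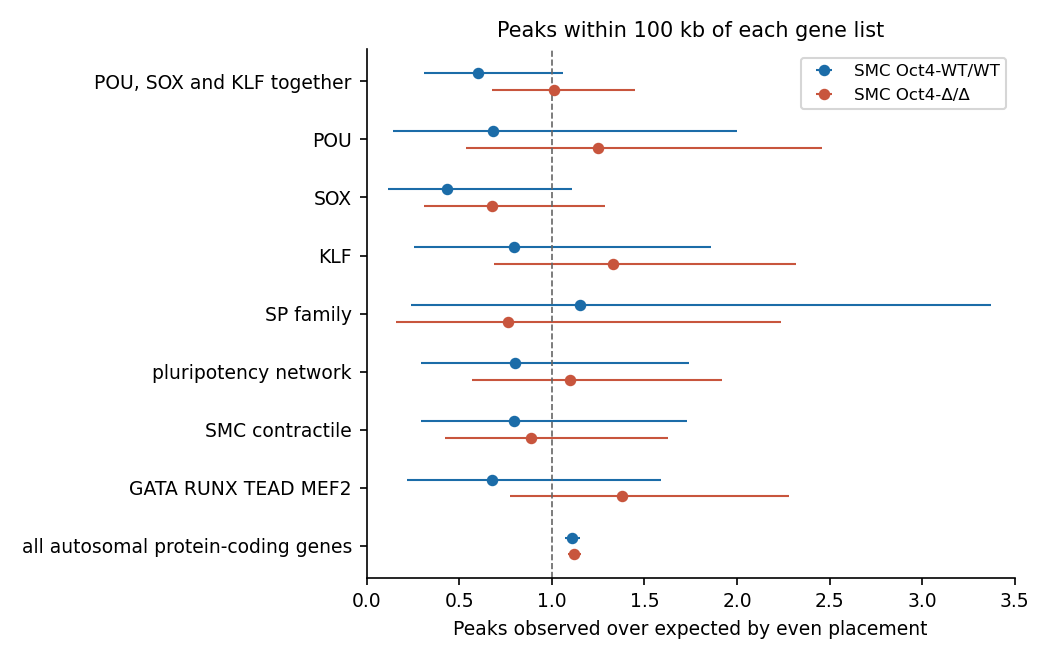
Points are peaks within 100 kb of the genes of each list divided by the number expected from even placement within chromosomes, and lines are exact 95% Poisson intervals, for SMC Oct4-WT/WT (blue) and SMC Oct4-Δ/Δ (red). The interval of every family and comparison list spans 1, and the list of all coding genes lies at 1.11 and 1.12.

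The families did not separate by these counts. Of the 12 POU genes, 3 had a peak in SMC Oct4-WT/WT (25%, 5.49 to 57.2) and 6 in SMC Oct4-Δ/Δ (exact interval 21.1 to 78.9%). Of the 18 SOX genes, 4 had one in SMC Oct4-WT/WT (22.2%, 6.41 to 47.6) and 7 in SMC Oct4-Δ/Δ (38.9%, 17.3 to 64.3). KLF genes had the highest shares, 5 of 16 in SMC Oct4-WT/WT (31.2%, 11.0 to 58.7) and 11 of 16 in SMC Oct4-Δ/Δ (68.8%, 41.3 to 89.0). Their intervals overlap those of the other families. The interval of every family also holds the share of all genes, 29.9% in SMC Oct4-WT/WT and 46.1% in SMC Oct4-Δ/Δ. The peaks numbered 3 and 8 for POU genes, 4 and 9 for SOX genes, and 5 and 12 for KLF genes, with the SMC Oct4-WT/WT count first.

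Before the genes are taken singly, the height of a peak needs a unit. The number of fragments at the summit (the pileup) was recovered from the deposited fold enrichment, which is the summit pileup plus 1 over the expected pileup plus 1. The expected pileup was 0.458 in SMC Oct4-WT/WT and 0.462 in SMC Oct4-Δ/Δ, and the smallest pileup of any called peak was 5. Member peaks had a median pileup of 10.0 in both genotypes, with a range of 8 to 17 in SMC Oct4-WT/WT and 6 to 25 in SMC Oct4-Δ/Δ. The median over all autosomal peaks was 10.0 in SMC Oct4-WT/WT and 11.0 in SMC Oct4-Δ/Δ, so members were not marked by high peaks. The species that the fragments came from was not checked, since the lists hold no reads, and the repeat words at the summits are described further on.

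**Figure D2:**
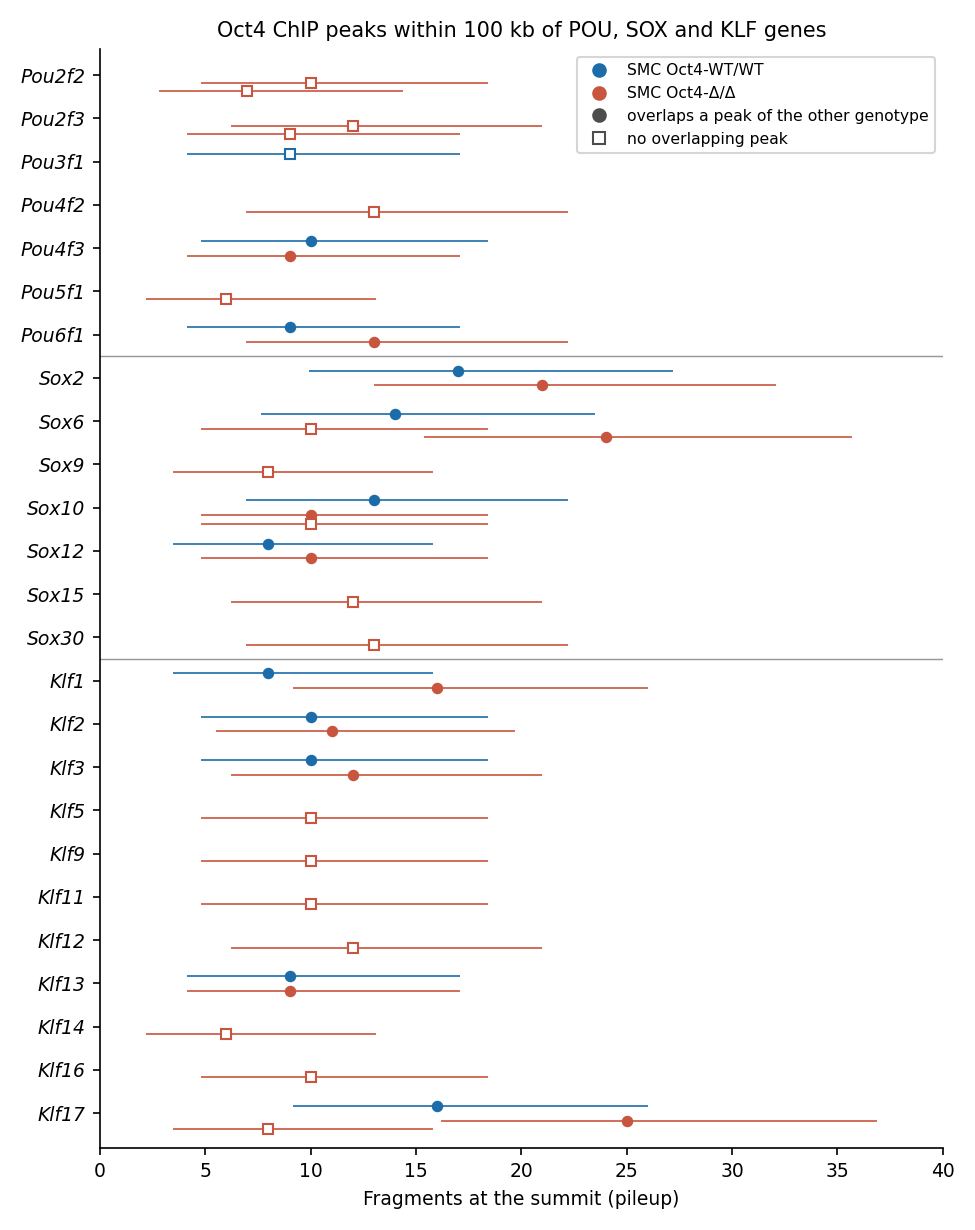
Each point is 1 peak within 100 kb of the gene named on the left, placed by the fragments at its summit, with exact 95% Poisson intervals. Filled circles overlap a peak of the other genotype and open squares do not. Of the SMC Oct4-WT/WT peaks (blue), only that of Pou3f1 is open, and those of Sox2 and Klf17 are the highest, at 17 and 16 fragments.

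Pou5f1, the gene of Oct4 itself, had no peak within 100 kb in SMC Oct4-WT/WT, where its nearest summit was 265.0 kb away. In SMC Oct4-Δ/Δ it had 1 peak of 6 fragments (2.2 to 13.1), among the lowest of the member peaks, with a fold of 4.79. That peak, chr17:35435207-35435245, lay 70.8 kb upstream of Pou5f1 in the major histocompatibility region, 3.94 kb from H2-Q7, in sequence present 2 times in the assembly. Fragments that fit both copies cannot be placed from the peak list alone. Klf4, the KLF gene at the centre of the wider study, had no peak within 100 kb in either genotype. Its nearest summit was 290.3 kb away in both, with 10 fragments in SMC Oct4-WT/WT and 9 in SMC Oct4-Δ/Δ.

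Among POU genes, the peak of Pou6f1, a POU factor expressed in brain, lay 52.7 kb downstream of it in an intron of Tfcp2. It held 9 fragments in SMC Oct4-WT/WT and 13 in SMC Oct4-Δ/Δ. Pou4f3, a factor needed for survival of the hair cells of the inner ear, had a peak 6.56 kb downstream with 10 fragments in SMC Oct4-WT/WT and 9 in SMC Oct4-Δ/Δ. Pou3f1, which acts in Schwann cell myelination, was the member with a peak in SMC Oct4-WT/WT alone. Its peak at chr4:124713988-124714028 held 9 fragments (4.12 to 17.1), 53.3 kb downstream of Pou3f1 and 0.774 kb from Sf3a3, a splicing factor gene. The closest SMC Oct4-Δ/Δ summit to Pou3f1 was 153.0 kb away.

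Further POU genes had peaks in SMC Oct4-Δ/Δ alone. Pou2f2, the B cell factor Oct2, had a peak of 10 fragments in its own intron, 25.2 kb from the nearest of its annotated transcript starts. It also had a peak of 7 fragments 8.8 kb upstream. Pou2f3, which specifies tuft cells, had a peak of 12 fragments 9.84 kb downstream, in an intron of Tmem136 (chr9:43114074-43114121), and one of 9 fragments 39.9 kb upstream. Its nearest SMC Oct4-WT/WT summit was 1646.1 kb away. Pou4f2, which acts in retinal ganglion cells, had a peak of 13 fragments 93.1 kb upstream, in an intron of Slc10a7 and close to the edge of the 100 kb window. Pou1f1, Pou2f1, Pou3f2, Pou3f3 and Pou4f1 had no peak in either genotype. Pou4f1 lay just outside the rule, with summits at 120.9 kb in SMC Oct4-WT/WT and 124.7 kb in SMC Oct4-Δ/Δ, and the latter had 74 fragments, more than any member peak.

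Among SOX genes, Sox2 had the highest peak of any member in SMC Oct4-WT/WT. It lay 69.2 kb downstream of the gene with no other coding gene in the window, and held 17 fragments in SMC Oct4-WT/WT (9.9 to 27.2) and 21 in SMC Oct4-Δ/Δ (13.0 to 32.1), at folds of 12.3 and 15.0. Both summits fell on the same base. The peak of Sox6, a factor of cartilage and red cell development, lay 70.2 kb upstream of Sox6 and 3.81 kb from 1110004F10Rik. It held 14 fragments in SMC Oct4-WT/WT and 24 in SMC Oct4-Δ/Δ. Sox10, a factor of neural crest and glia, had a peak of 13 fragments in SMC Oct4-WT/WT and 10 in SMC Oct4-Δ/Δ, 12.4 kb downstream in an intron of Polr2f (chr15:79142455-79142505). That of Sox12 held 8 fragments in SMC Oct4-WT/WT and 10 in SMC Oct4-Δ/Δ, 6.48 kb upstream of the gene. Each of these 4 sites was called in both genotypes, so no SOX gene had a peak particular to SMC Oct4-WT/WT.

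Sox9, Sox15 and Sox30 had peaks in SMC Oct4-Δ/Δ alone. Sox9, the main regulator of chondrocyte fate, had 8 fragments 70.9 kb downstream (chr11:112858687-112858725), and its nearest SMC Oct4-WT/WT summit was 165.0 kb away. Sox15 had 12 fragments in an intron of Tnfsf12, 36.1 kb downstream, in a window with 15 other coding genes. Sox30, which acts in sperm development, had 13 fragments in its own intron (chr11:45993177-45993224), where the 31-base words around the summit have a median of 31 copies in the assembly. Sox6 and Sox10 each had 1 further peak in SMC Oct4-Δ/Δ, of 10 fragments each. The SOX genes with no peak in either genotype were Sox1, Sox4, Sox5, Sox7, Sox8, Sox11, Sox13, Sox14, Sox17, Sox18 and Sox21. Of these, Sox14 was nearest to the limit, with an SMC Oct4-WT/WT summit at 104.3 kb.

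Among KLF genes, Klf17, a factor of the germ line and early embryo, had the highest peak, 26.7 kb upstream, with 16 fragments in SMC Oct4-WT/WT (9.15 to 26.0) and 25 in SMC Oct4-Δ/Δ (16.2 to 36.9). Klf1, the erythroid activator of beta-globin, had 8 fragments in SMC Oct4-WT/WT and 16 in SMC Oct4-Δ/Δ, in a window with 15 other coding genes. The peak of Klf2 held 10 fragments in SMC Oct4-WT/WT and 11 in SMC Oct4-Δ/Δ, 12.3 kb downstream and 7.08 kb from Eps15l1 (chr8:72333895-72333945). For Klf3, a repressor, the values were 10 and 12 fragments, 51.2 kb upstream (chr5:64752143-64752184). For Klf13, the sole member with an SMC Oct4-WT/WT peak inside its body, they were 9 in each genotype, in an intron and over a long run of G. All 5 sites were called in both genotypes.

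KLF genes with peaks in SMC Oct4-Δ/Δ alone were Klf5, Klf9, Klf11, Klf12, Klf14 and Klf16. Klf5 had 10 fragments 49.4 kb upstream, in an intron of Pibf1 (chr14:99249250-99249302). Klf9, a gene induced by glucocorticoid and thyroid hormone, had 10 fragments 68.3 kb upstream in an intron of the long noncoding RNA gene C330002G04Rik. Klf12 had 12 fragments in its own intron, 32.5 kb from the nearest of its annotated transcript starts. Klf11 had 10 fragments 21.4 kb downstream and Klf16 had 10 fragments 41.3 kb upstream. Klf14, a single-exon gene, had 6 fragments 60.7 kb upstream in sequence with a median of 5 copies. Klf17 had a further peak of 8 fragments, 94.9 kb upstream and near the edge of the window. Klf4, Klf6, Klf7, Klf10 and Klf15 had no peak in either genotype.

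**Figure D3:**
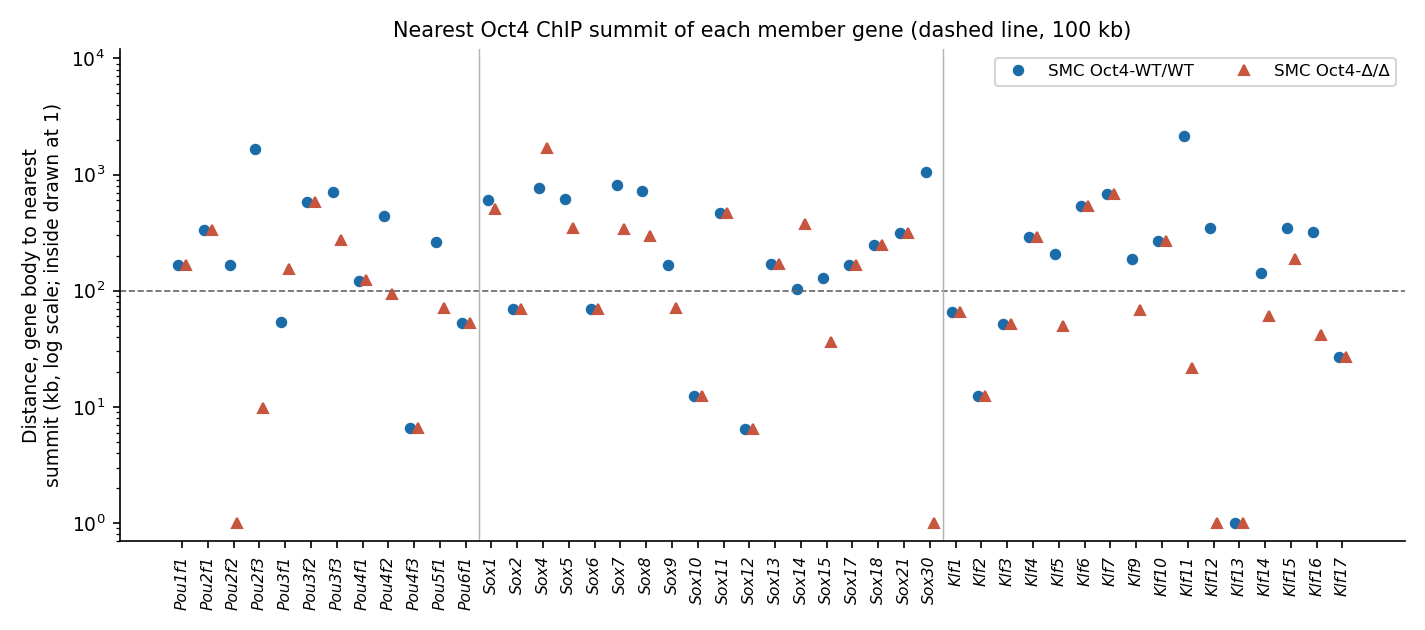
Distance from each of the 46 gene bodies to the nearest summit, in kb on a log scale, in SMC Oct4-WT/WT (blue circles) and SMC Oct4-Δ/Δ (red triangles). Summits inside a gene body are drawn at 1 kb, vertical lines part the POU, SOX and KLF families, and the dashed line is the 100 kb limit. For Klf4 both symbols lie at 290.3 kb, and for Pou5f1 they lie at 265.0 and 70.8 kb.

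Most member peaks of SMC Oct4-WT/WT were also called in SMC Oct4-Δ/Δ. Of the 12 SMC Oct4-WT/WT member peaks, 11 overlapped an SMC Oct4-Δ/Δ peak by at least 1 bp. The unshared share was 8.33% (0.211 to 38.5). It was 29% of all autosomal SMC Oct4-WT/WT peaks and 19.8% of those outside the dense bins, both inside the interval. By gene, 1 of 46 members had an SMC Oct4-WT/WT peak with no overlapping SMC Oct4-Δ/Δ peak (2.17%), against 6.73% of all genes. In the other direction, 16 of 46 members had an SMC Oct4-Δ/Δ peak with no overlapping SMC Oct4-WT/WT peak (34.8%), against 30.0% of all genes, and 18 of the 29 peaks were unshared (62.1%, 42.3 to 79.3) against 52.1% over the autosomes.

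At the 11 shared sites the SMC Oct4-Δ/Δ pileup was the higher at 8, the lower at Pou4f3 and Sox10, and equal at Klf13. The fragments summed to 124 in SMC Oct4-WT/WT and 160 in SMC Oct4-Δ/Δ, a ratio of 1.29, and the median ratio was 1.24. Across all 2761 shared autosomal SMC Oct4-WT/WT peaks the median ratio was 1.15 and 63.9% were higher in SMC Oct4-Δ/Δ. The largest member ratio was 2.0 at Klf1, with an exact interval of 0.808 to 5.4, and the intervals of all 11 ratios include 1. Counting error alone thus covers the gap between the samples at each of the 11 sites. The ratios were not corrected for the recovered depth, and sites called in 1 list alone had none. With 1 sample per genotype, a difference between the genotypes could not be tested.

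The distance limit set how many members were counted, and the share of members rose with that of all genes. In SMC Oct4-WT/WT, members with a peak numbered 1 with the gene body alone, 3 at 10 kb, 6 at 50 kb, 12 at 100 kb and 22 at 200 kb. The share of all genes was 5.45%, 8.49%, 18.9%, 29.9% and 46.9% in the same order, against 2.17%, 6.52%, 13.0%, 26.1% and 47.8% of members. In SMC Oct4-Δ/Δ, members with a peak numbered 4, 7, 14, 24 and 30, or 8.7%, 15.2%, 30.4%, 52.2% and 65.2%, against 9.26%, 14.2%, 30.7%, 46.1% and 65.5% of all genes. Counting a peak only where the member was the nearest coding gene left 6 members in SMC Oct4-WT/WT and 14 in SMC Oct4-Δ/Δ. The share of all genes under that rule was not computed, so these counts have no background beside them.

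**Figure D4:**
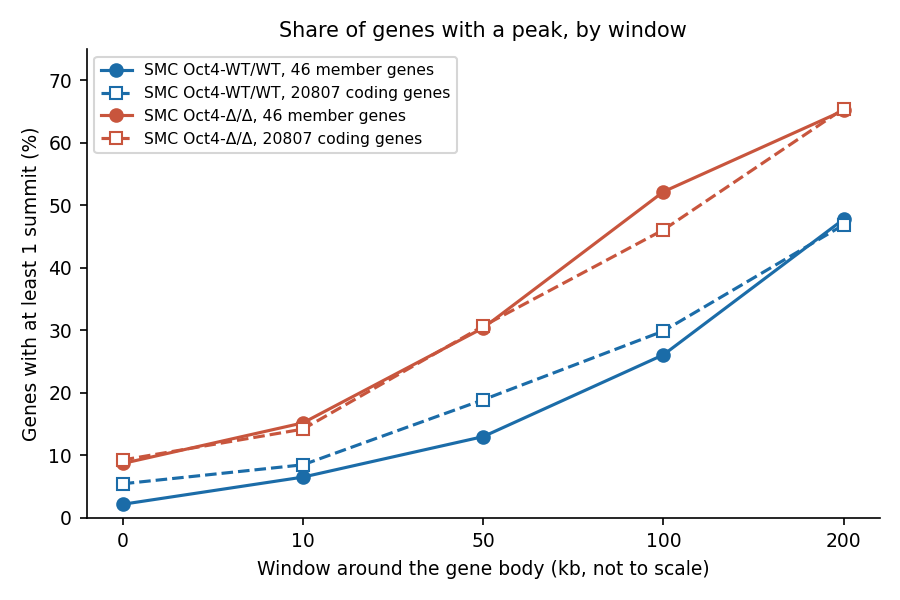
Percent of genes with at least 1 summit in the gene body or within the distance on the horizontal axis (kb, categories not to scale), for the 46 members (filled, solid) and all 20807 autosomal coding genes (open, dashed), by genotype. At 200 kb the members lie at 47.8% and 65.2% and all genes at 46.9% and 65.5%.

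Lists of other genes gave shares whose exact intervals all hold the share of all genes, 29.9% in SMC Oct4-WT/WT and 46.1% in SMC Oct4-Δ/Δ. Of 9 genes of the SP family, the closest relatives of KLF, Sp1, Sp5, Sp6 and Sp7 had a peak within 100 kb in both genotypes (44.4%, 13.7 to 78.8). These genes held 3 distinct peaks in each genotype, of which 1 did not overlap a peak of the other. Of 19 genes of the pluripotency network outside the 3 families, 4 had one in SMC Oct4-WT/WT (21.1%: Lin28a, Mycn, Smad1 and Stat3) and 8 in SMC Oct4-Δ/Δ (42.1%). Of 17 SMC contractile genes, 4 had one in SMC Oct4-WT/WT (23.5%: Des, Lmod1, Mylk and Smtn) and 8 in SMC Oct4-Δ/Δ (47.1%). Of 16 genes of the GATA, RUNX, TEAD and MEF2 families, 4 had one in SMC Oct4-WT/WT (Gata2, Gata3, Gata4 and Gata6) and 9 in SMC Oct4-Δ/Δ. In these lists too, the observed over expected ratio had an interval that spans 1 in both genotypes.

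The sequence under the member peaks was then described. None of the 12 SMC Oct4-WT/WT windows of 201 bp around the summit held the octamer (ATGCAAAT or ATTTGCAT), with an exact interval that reaches 26.5%, against 2.19% over all autosomal windows. In SMC Oct4-Δ/Δ 1 of 29 held it (3.45%), against 2.49%. That window, of Klf9 and printed above, held ATTTGCAT 2 times. The letters ATTGTT or AACAAT stood in 1 of 12 and 1 of 29 windows, both times that of Pou6f1, against 11.1% and 10.8% over the autosomes. The letters CCACACCC or GGGTGTGG stood in 1 of 12 and 1 of 29, both times that of Klf17, against 2.11% and 2.42%. Windows of the same size 1 kb to each side of all autosomal summits held the octamer in 1.45% for SMC Oct4-WT/WT and 1.43% for SMC Oct4-Δ/Δ. To each side of member summits it stood in 1 of 24 windows (4.17%) and 2 of 58 (3.45%). A match here is a description of letters, and no match says only that they were not in the window.

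All 12 SMC Oct4-WT/WT member summits lay on bases that the reference marks as repeats (exact interval from 73.5% upward). So did 71.4% of all autosomal summits and 81.8% of those outside the dense bins. In SMC Oct4-Δ/Δ 21 of 29 member summits did (72.4%, 52.8 to 87.3), against 75.8% and 82.1% in the same order. All 12 SMC Oct4-WT/WT member summits were in sequence whose 31-base words had a median of 1 copy. So were 2332 of all 3888 autosomal summits, and 73.7% of those outside the dense bins. In SMC Oct4-Δ/Δ 26 of 29 member summits were, against 70.9% and 80.2%. Without summits on repeat-marked bases, 0 members had a peak in SMC Oct4-WT/WT and 8 in SMC Oct4-Δ/Δ. The share of all genes left with a peak by that filter was not computed, so these counts are not a result about the members. No member summit lay in an exon or untranslated region. In SMC Oct4-WT/WT 7 were between genes and 5 in introns, and in SMC Oct4-Δ/Δ 13 and 16.

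Many of the windows shared letters of short interspersed repeats, which were described by 4 words of 9 letters chosen after the sequences had been seen. B1 elements of rodents and Alu elements of primates derive from the same small cytoplasmic RNA, and the usual B1 sequence holds CTTTAATCC and GGAGGCAGA where the usual Alu sequence holds CTGTAATCC and, in its right arm, GGAGGCTGA. In the mouse autosomes the words CTTTAATCC and GGAGGCAGA are the more common, with 72.3 and 92.2 copies per Mb, against 17.2 for CTGTAATCC and 23.6 for GGAGGCTGA. CTGTAATCC or GGAGGCTGA stood in 5 of 12 SMC Oct4-WT/WT member windows (41.7%, 15.2 to 72.3), those of Sox2, Sox10, Sox12, Klf1 and Klf3, and in 11 of 29 in SMC Oct4-Δ/Δ (37.9%, 20.7 to 57.7). CTTTAATCC or GGAGGCAGA stood in 2 of 12 (16.7%, 2.09 to 48.4) and 5 of 29 (17.2%, 5.85 to 35.8). Taken singly, CTGTAATCC stood in 3 SMC Oct4-WT/WT member windows and CTTTAATCC in 1, while each stood in 4 in SMC Oct4-Δ/Δ. GGAGGCTGA stood in 3 and 8 member windows and GGAGGCAGA in 2 and 4, with the SMC Oct4-WT/WT count first.

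The words were also counted over the whole lists. CTGTAATCC or GGAGGCTGA stood in 12.0% of all autosomal SMC Oct4-WT/WT windows and 15.6% of those of SMC Oct4-Δ/Δ, and in 0.849% and 0.967% of windows 1 kb to each side. CTTTAATCC or GGAGGCAGA stood in 9.41% and 11.8% of summit windows and 3.6% and 4.02% of those to each side. To each side of member summits, CTGTAATCC or GGAGGCTGA stood in 1 of 24 and 1 of 58 windows. There CTTTAATCC or GGAGGCAGA stood in 0 of 24 and 1 of 58. Taken singly, CTGTAATCC was more common than CTTTAATCC at autosomal summits (6.74% against 5.32% in SMC Oct4-WT/WT, 8.89% against 6.66% in SMC Oct4-Δ/Δ), and GGAGGCTGA was slightly less common than GGAGGCAGA (6.56% against 7.18%, and 8.15% against 8.85%). In SMC Oct4-WT/WT peaks with no overlapping SMC Oct4-Δ/Δ peak, the pair of CTGTAATCC and GGAGGCTGA was the less common, at 2.66% against 3.11%. In SMC Oct4-Δ/Δ peaks with no overlapping SMC Oct4-WT/WT peak, the same pair was the more common, at 15.5% against 11.4%. Outside 1 Mb bins dense in peaks, where all member peaks lie, that pair stood in 16.2% of SMC Oct4-WT/WT windows, inside the interval of members, and in 18.5% of those of SMC Oct4-Δ/Δ, under the interval of members. Since the words were chosen from the member windows, these shares describe them and are no independent evidence. The peak lists hold no reads, so whether fragments of primate DNA or of other copies of the repeat are counted in these peaks was not tested, and every peak and pileup given here carries that limit.

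**Figure D5:**
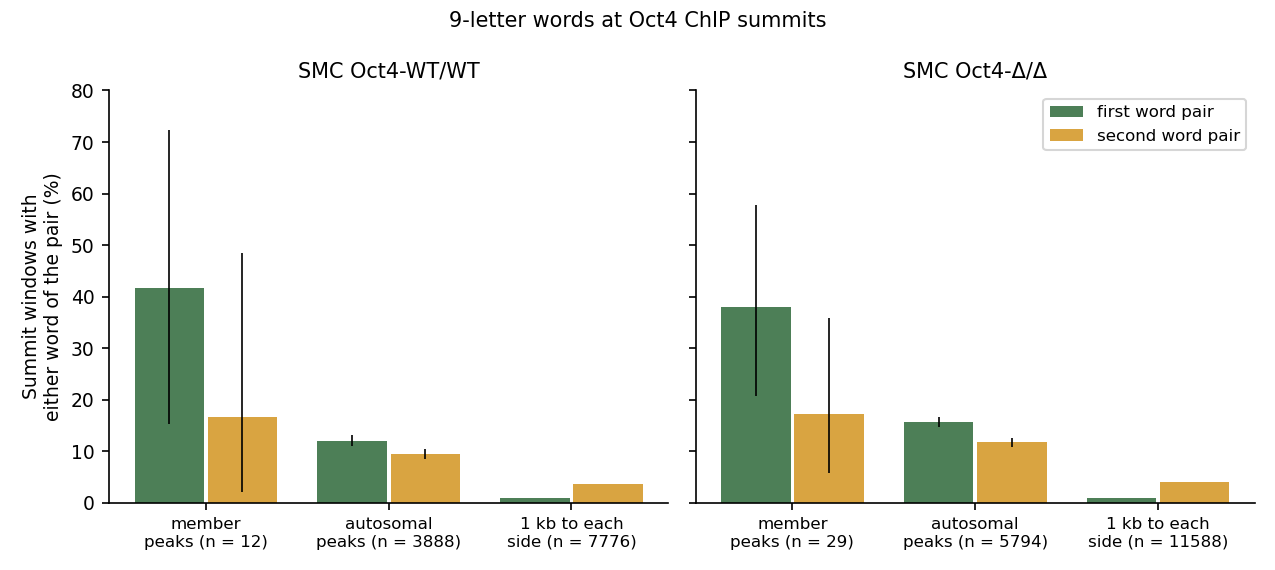
Bars are the percent of 201-bp windows that hold either word of a pair, at member summits, at all autosomal summits and 1 kb to each side of those, with exact 95% binomial intervals on the summit bars. The first pair (green) is the rarer in the mouse autosomes, and stands at 41.7% and 37.9% of member windows and under 1% of windows to each side of autosomal summits.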

How the data were processed

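The authors made 1 Oct4 ChIP sample per genotype from aortic segments of 15 mice each, used Bowtie to align the reads (GRCm38.p6), SAMtools to take out duplicates, and MACS2 to call peaks with q below 0.05. The deposited peak lists hold the score, the fold enrichment (a ratio), the −log10 p and −log10 q, and as another value the summit offset in bp, all as the authors' caller wrote them. Of the 3 deposited lists, that named for wild-type over knockout was the same as the wild-type list in all 5455 entries. The control of each call is not given in the sources used here, and read totals were not used here. All folds of a list fitted a single constant expected pileup, with a largest residual of 6.88e-06 in SMC Oct4-WT/WT and 7.59e-06 in SMC Oct4-Δ/Δ. The deposited folds therefore hold no correction for a background that differs between sites. Depth is the recovered expected pileup over the narrowest peak. Klf4 ChIP-seq, bulk RNA-seq and single-cell samples of the series were not used here.

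No peak of the 19 autosomes was filtered. Some peak sequences and the location of 1 peak are not reported here. Members and gene lists were chosen with earlier results of these data known. Named were Pou5f1, Klf4 and each member with a peak; members without one were listed. Even placement was computed as an exact mean over non-N bases of each chromosome, with no p. Intervals are exact Clopper-Pearson and Poisson at 95%, and cover counting error only. Copies are the median count of 31-base words within 100 bp of the summit. Steps were tested on simulated peaks. Python 3.11.15, numpy 2.4.6, pandas 2.3.3, scipy 1.17.1 and matplotlib 3.10.9 were used.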

Additional observations from a re-analysis of the deposited data

How the results depend on the processing

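No paired analysis was possible because each genotype was sampled 1 time, and for the same reason no sample could be left out. Of 78 values recomputed with another window, threshold or filter, 51 were scored as the same and 27 as moved. Of 8 runs on single-copy summits, chosen after seeing the data, 7 were scored as the same and 1 as moved. The score was coarse, and values scored as the same could still differ. Outside the dense bins the SMC Oct4-WT/WT ratio of 0.604 became 0.873 and the SMC Oct4-Δ/Δ ratio of 1.01 became 1.23. At 200 kb the latter became 1.35 and the 24 SMC Oct4-Δ/Δ members became 30. With 1 mismatch allowed, the SMC Oct4-Δ/Δ octamer share of 3.45% became 10.3% (2.19 to 27.4), against 21.3% over all autosomal windows. In SMC Oct4-WT/WT that share stayed at 0.0% (interval up to 26.5), against 19.9%. In SMC Oct4-WT/WT, the 12 members with a peak became 1 with the gene body alone, 3 at 10 kb, 6 at 50 kb, 22 at 200 kb, 6 with the nearest coding gene and 0 without repeat-marked summits. The 12 peaks of members became 1, 3, 6, 45, 6 and 0 in the same order. Their ratio to even placement, 0.604, became 0.231 with the gene body, 1.27 at 200 kb, 0.0 without repeat-marked summits and 1.07 with single-copy summits. In SMC Oct4-Δ/Δ, the 24 members became 4 with the gene body, 7 at 10 kb, 14 at 50 kb, 14 with the nearest gene and 8 without repeat-marked summits. The 29 peaks became 4, 8 and 17 at these distances, 69 at 200 kb, 15 with the nearest gene and 8 without repeat-marked summits. Their ratio of 1.01 became 0.631 with the gene body. Smaller windows and left-out peaks lower the counts by construction, and for the other changes the cause was not tested. For the nearest gene and for the filter on repeat-marked summits, the share of all genes was not computed. With 8 to 17 fragments per SMC Oct4-WT/WT member peak, counting error alone covers the gap between the samples at each shared member site. With 1 sample per genotype, a difference between the genotypes could not be tested at any site.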
